A study of Mus musculus with 2 samples.

Results

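The hairpins numbered Mir6896 to Mir7094 are a run of late entries in the mouse miRNA gene list. They were chosen as every gene of both count tables whose Ensembl identifier carries a GENCODE symbol in the run from Mir6896 to Mir7094, with a copy letter or copy number allowed, and 178 of the 1973 listed genes met the rule. Of the 199 numbers in the range, 176 had a listed gene with such a symbol and 23 had none. The rule reads symbols only: 2 listed genes with other symbols, Gm27740 and Gm27775, carry arms that RefSeq names miR-6967, had no counts in either library and stay among the other genes.

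The tissue was whole stomach of B6NCrl mouse embryos at embryonic day 15.5, pooled over both sexes and described as healthy, with no treatment and no second genotype. Small RNA below 30 nt was sequenced from 2 biological replicates, a pool of 78 embryos (replicate 1) and a pool of 62 embryos (replicate 2). A pool averages its embryos, so the spread between embryos was not measured, and all SDs below are over 2 pools. Sense-strand counts of miRNA genes came to 5988677 in replicate 1 and 6675498 in replicate 2.

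Most animal miRNAs are cut from a longer transcript by Drosha in the nucleus and then by Dicer in the cytoplasm, which leaves a duplex of a 5p and a 3p arm. A mirtron skips the Drosha step: a short intron is spliced out, debranched and folded, and its own ends become the ends of the hairpin. In a tailed mirtron only one end of the hairpin is an intron end, and the rest of the intron is trimmed away as a tail. Introns of this kind begin with GU and finish with a pyrimidine tract and AG. Where the hairpin reaches the 3′ end of the intron, its 3p arm thus carries the splice acceptor.

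By the GENCODE M21 gene models, nearly all of these hairpins lay at intron ends. A hairpin end was counted as at an intron end when it was within 5 bases of it. The 3′ end of an intron of another gene on the same strand held 151 of the 178 hairpins, 15 spanned an intron from end to end, 4 sat at the 5′ end of an intron, 7 overlapped an exon and 1 lay inside an intron. Together 170 (95.5%) were at an intron end, and 165 (92.7%) finished on the last base of the intron. Among the 1716 other listed genes with a symbol, 39 (2.27%) were at an intron end and 21 (1.22%) finished on the last base. The others lay mainly inside introns (637) or away from other genes (582).

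**Figure D1:**
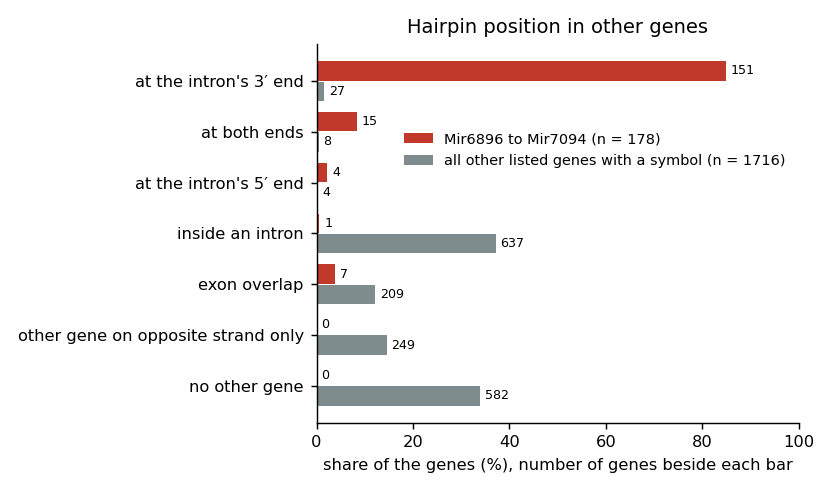
Share of genes (percent, horizontal axis) by position of the hairpin relative to the exons and introns of other genes, for the 178 Mir6896 to Mir7094 hairpins and the 1716 other listed genes with a symbol; the number of genes stands beside each bar. The hairpins at a 3′ intron end make up most of the first set (151) and little of the second (27).

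The following hairpins show the classes, with sequences from RefSeq (GRCm38.p6), 5′ to 3′. In the first 3, capitals mark the first or last intron bases that the hairpin reaches. Mir7036b reaches no intron end and has no capitals, and in Mir7025 the capitals are bases of an exon. Mir6944 is a whole intron of Dbn1, Mir7083 takes the last stretch of a Dock6 intron, and Mir6936 takes the first stretch of a Sirt7 intron.
Mir6944: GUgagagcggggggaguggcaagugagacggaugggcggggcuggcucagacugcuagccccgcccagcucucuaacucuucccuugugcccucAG
Mir7083: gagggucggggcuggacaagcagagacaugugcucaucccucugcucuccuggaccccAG
Mir6936: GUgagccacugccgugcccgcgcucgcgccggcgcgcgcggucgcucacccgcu
Mir7036b: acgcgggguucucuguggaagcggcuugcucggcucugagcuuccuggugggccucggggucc
Mir7025: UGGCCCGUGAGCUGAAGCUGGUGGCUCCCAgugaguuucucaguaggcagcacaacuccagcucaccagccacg

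The introns around the 151 hairpins of the 3′ class had a median length of 569 bases and ran from 77 to 36269 bases. Those of the 15 hairpins that span an intron were short, with a median of 83 bases and a range of 67 to 137. The 15 host genes of these whole-intron hairpins were Dbn1, Dennd6b, Hspg2, Cherp, Fbxw9, Skiv2l, Dnase1l1, Mst1, Lta, Fbrs, Arap3, Cpne7, Myh3, Lat and Raver1. In all, 177 of the 178 hairpins had a protein-coding host by annotation, and the host of the exception, Mir7094-2, was the immunoglobulin segment Ighv1-5. The hairpins were spread over 19 chromosomes with at most 17 on one, and they had 174 different hosts. Arap3, Cmip, Skiv2l and Srebf1 each held 2 of them in separate introns.

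Of the 7 hairpins that overlap an exon, 6 shared only 6 or 7 bases with it, and 2 hairpins counted as at an intron end ran into the exon by 1 base (Mir7010) and 4 bases (Mir7082). Mir7025 shared 30 bases with an exon of Pdgfra, the receptor for platelet-derived growth factor found on mesenchymal cells. No hairpin of the 178 overlapped another listed gene, and none had a count on the opposite strand in either library.

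Arm sequences were found in RefSeq for 163 of the 178 hairpins, and they carried the letters of a splice acceptor. The 3p arm ended in AG in 121 of 155 cases (78.1%), against 53 of 467 (11.3%) in the other listed genes with a 3p arm. In 115 of the 155 the last base of the arm was also the last base of the intron. Pyrimidines made up a median of 71.4% of the 3p arm (quartiles 65.2% and 77.3%), against 54.5% (45.5% and 61.9%) in the others. The 29 3p arms of other genes at a 3′ intron end or spanning an intron were alike in this: 62.1% ended in AG and the median pyrimidine share was 68.2%.

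Base by base from the 3′ end of the 3p arm, the pyrimidine share was 14.8% at the last base, 18.1% at the base before it and 91.0% at base 3. It dropped to 61.9% at base 4 and was 91.0% and 91.6% at bases 5 and 6. That order is the one of a splice acceptor, a tract, any base, a pyrimidine and AG. The 5p arms were purine rich instead, with a median of 45.5% G against 27.3% and of 31.8% pyrimidine against 50.0% in the other genes. Only 15 of 157 5p arms began with GU (9.55%), and 15 began at the start of an intron. Hairpins were shorter (median 66 bases, range 52 to 137) than those of other listed genes (median 94) and had a median GC content of 57.7% against 50.6%. These features follow in part from the position at an intron end and carry no test.

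**Figure D2:**
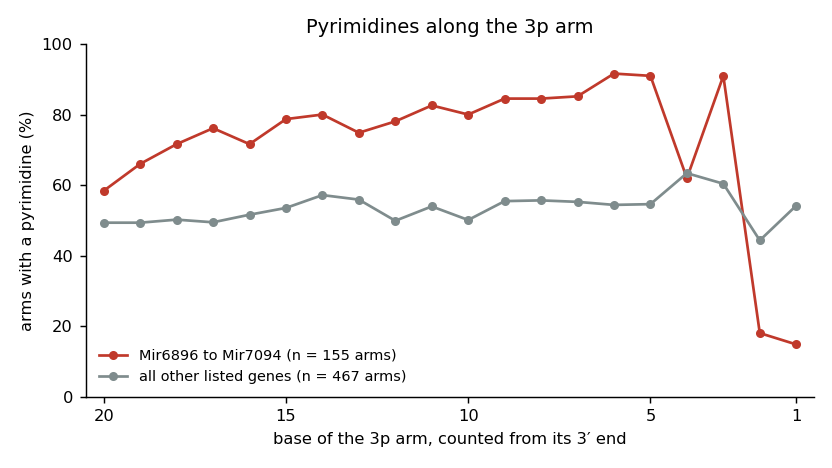
Share of 3p arms with a pyrimidine (percent, vertical axis) at each base counted from the 3′ end of the arm (horizontal axis), for the 155 arms of Mir6896 to Mir7094 and the arms of other listed genes. The line of the intron-end hairpins drops to 18.1% and 14.8% over the last 2 bases, the AG, and stands at 91.0% at base 3.

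The mature arms of the 6 hairpins with 10 or more counts in both libraries follow, since only these 6 can be followed in each pool with some precision. The seed, bases 2 to 8, is in capitals. Of the 6 hairpins, all but Mir7069 have a 3p arm that ends in AG.
mmu-miR-6944-5p: gUGAGAGCggggggaguggcaag
mmu-miR-6944-3p: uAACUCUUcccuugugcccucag
mmu-miR-7083-5p: uCGGGGCUggacaagcagaga
mmu-miR-7083-3p: uCUGCUCUccuggaccccag
mmu-miR-6969-5p: cAGCAGAGuagggagcaaaaga
mmu-miR-6969-3p: uGUUGUUCccaucucugcag
mmu-miR-6975-5p: gCUGGGGAgaaagggguuuggca
mmu-miR-6975-3p: uCUCUCCUuucuccuccuag
mmu-miR-7069-5p: uUGGGGGCcugggagggugacac
mmu-miR-7069-3p: cCUGCCCUgccaaccccuaca
mmu-miR-6934-5p: uUGGUGGAgacagcaagggugg
mmu-miR-6934-3p: aCCUCUGCuccugccccaccag

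Seeds, which set most of the target choice of a miRNA, were little shared. The 312 arms of these hairpins held 287 different seeds, 21 seeds occurred in more than 1 of the hairpins, and no seed occurred in more than 3 arms. The 3 arms below share the seed CACCCUG and come from introns of Hspg2, Pik3cd and Cherp, and miR-18a-3p is shown because its seed is also that of miR-7069-3p above.
mmu-miR-7018-3p: uCACCCUGcugccggcuugcag
mmu-miR-7023-3p: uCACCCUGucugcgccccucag
mmu-miR-7068-3p: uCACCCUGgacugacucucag
mmu-miR-18a-3p: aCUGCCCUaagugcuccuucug

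Beyond the seed these arms differ, though the first 3 all begin with u and end in cag. The arms miR-7023-3p and miR-7068-3p both end in cucag. In all, 44 of the 312 arms shared their seed with an arm of a listed gene not among the 178. Mir18, the hairpin of miR-18a-3p, had a mean level of 3134 CPM against 2.08 CPM for Mir7069. CPM here means the counts of a gene scaled to 1000000 sense counts of miRNA genes in a library, not divided by length. The counts are per hairpin, so the level of either arm alone is not known.

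The hairpins were often counted but at very few reads. A count in at least 1 library was found for 135 of the 178 (75.8%), against 591 of the 1795 other listed genes (32.9%). A count in both libraries was found for 96 (53.9%), against 505 (28.1%). At 10 or more counts in both libraries the order turned, with 6 of the hairpins (3.37%) and 363 of the others (20.2%). Over 3 counts in both libraries, the most that an observed 0 allows, stood 41 (23.0%) and 419 (23.3%).

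The comparison depends on which genes are taken as the others. The 922 other genes without a Mir symbol had a count in 5.64% of cases. Among the 873 other genes with a Mir symbol, 61.7% had a count, 54.5% had one in both libraries and 41.0% had 10 or more in both. The 195 other Mir genes numbered 6000 and above are the closest in number. They were counted in 31.8% of cases and reached 10 counts in both libraries in 7.69%. The 39 other genes at an intron end had a count in 69.2% and 10 or more in both in 30.8%. Their mix of positions differs from that of the hairpins. The 27 of them at a 3′ end were counted in 66.7% and reached 10 in both in 14.8%. For the 151 hairpins at a 3′ end these shares were 74.8% and 3.31%. Of genes that span an intron, 75.0% of the 8 others and 6.67% of the 15 hairpins reached 10 in both.

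**Figure D3:**
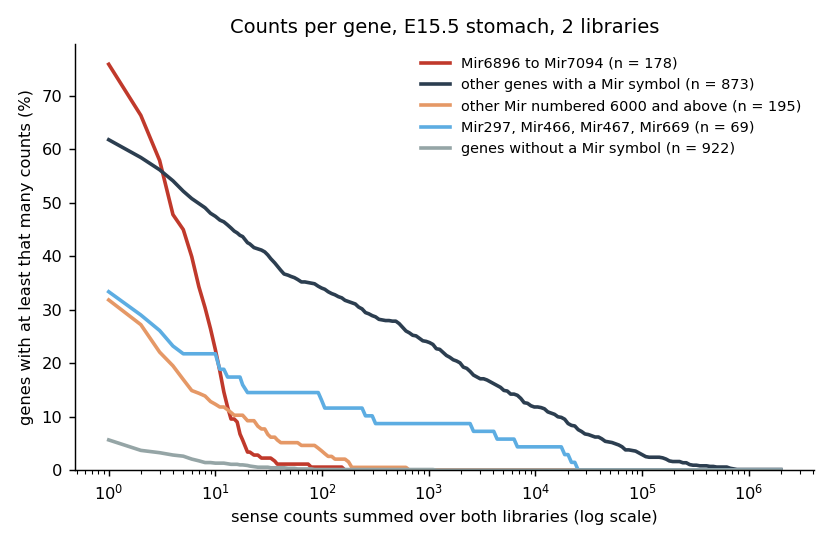
Share of genes (percent, vertical axis) that reach at least a given sum of sense counts over both libraries (log-scale horizontal axis), for the 178 hairpins and for sets of other listed genes. The line of the hairpins starts high, at 75.8% with any count, and falls to 22.5% at 10 counts.

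By summed counts over both libraries, 43 of the hairpins had none, 50 had 1 to 3, 45 had 4 to 9, 34 had 10 to 20 and 6 had more than 20. The median of the 135 counted hairpins was 6 counts, against 106 for the other genes with a count. Sets closer to the hairpins were as low where counted. The median was 5 counts for the other Mir genes numbered 6000 and above and 7.5 for the other genes at a 3′ intron end. Around the minimum of 10 summed counts used for tests, 7 hairpins stood at 8, 7 at 9 and 7 at 10. A count of 0 allows a level of up to 0.501 CPM in replicate 1 and 0.449 CPM in replicate 2 (3 counts). The 43 hairpins with none were thus not detected at this depth, and levels below these limits remain possible.

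All 178 hairpins held 603 sense counts in replicate 1 and 596 in replicate 2. Their share of sense counts came to 0.0101% for the first pool, with a 95% Wilson interval from 0.00930 to 0.0109, and to 0.00893% for the second (0.00824 to 0.00967). The mean was 0.00950% ± 0.000807 (SD, n = 2), or 95 ± 8.07 CPM for all of them together. A single hairpin, Mir6944, gave 13.5% of these counts, and the 10 highest gave 36.1%. None reached 100 CPM, a level that 197 other listed genes reached.

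Hairpins of every position class were counted. Of the 15 that span an intron, 12 had a count (80.0%), as did 113 of the 151 at a 3′ intron end (74.8%), 3 of the 4 at a 5′ end and 6 of the 7 that overlap an exon. Within the 3′ class, 77.6% were counted in introns up to the median length and 72.0% in longer ones, while 17.1% and 24.0% reached 10 summed counts. Hairpins above the median GC content were counted in 80.0% of cases and those at or below it in 71.6%, and 27.5% against 16.0% reached 10 summed counts. These differences carry no test.

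Mir6944 had the highest level. It is the whole 96-base intron 9 of Dbn1, which encodes the actin-binding protein drebrin, and lies at chr13:55477681-55477776 on the minus strand (mm10). It had 62 counts in replicate 1 and 100 in replicate 2, or 12.7 ± 3.27 CPM (SD, n = 2). With that it ranked 279 among all listed genes.

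The next was Mir7083, at the 3′ end of intron 38 of Dock6 (chr9:21809941-21810000, minus strand), with 43 and 35 counts and 6.21 ± 1.37 CPM. Mir6969 had 20 and 17 counts and 2.94 ± 0.561 CPM. It lies at the 3′ end of intron 2 of Clps (chr17:28558441-28558501, minus strand), which encodes colipase, a cofactor of pancreatic lipase.

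Mir6975 had 22 counts in replicate 1 and 13 in replicate 2 (2.81 ± 1.22 CPM). Its host intron, intron 2 of Ddx39b (chr17:35244075-35244135, plus strand), belongs to a helicase of splicing and mRNA export. Mir7069 had 15 and 11 counts (2.08 ± 0.606 CPM) at the 3′ end of intron 10 of Farsa (chr8:84867947-84868008, plus strand), which encodes a subunit of the phenylalanine tRNA synthetase. Mir6934 had 11 and 10 counts (1.67 ± 0.240 CPM) at the 3′ end of intron 8 of Tbc1d16 (chr11:119154076-119154137, minus strand), which encodes a GTPase-activating protein for Rab proteins. In this order Mir6944 and Mir7083 stood apart by more than their SDs, and those of Mir6969, Mir6975 and Mir7069 overlapped.

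**Figure D4:**
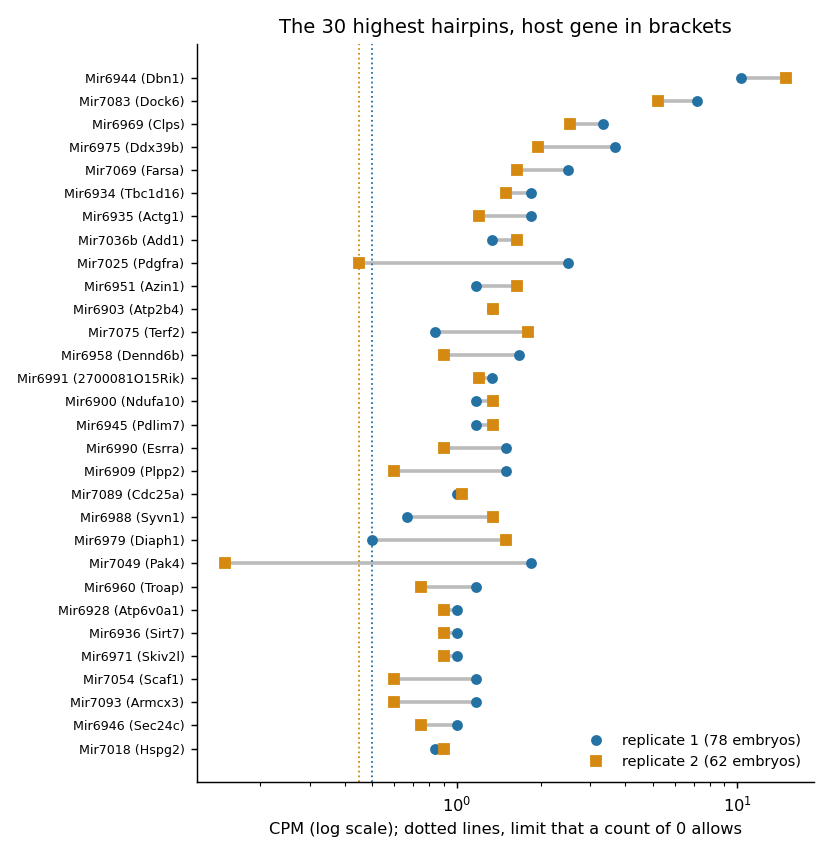
Level (CPM) of the 30 highest hairpins of the Mir6896 to Mir7094 run on a log-scale horizontal axis, with circles for replicate 1, squares for replicate 2, a bar joining the pair, the host gene in brackets and dotted lines at the limit that a count of 0 allows. Mir6944, with a mean of 12.7 CPM, and Mir7083, at 6.21 CPM, stand above the rest, and Mir7025 and Mir7049 have the widest gaps between the pools.

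The other 24 of the 30 highest had means between 0.867 and 1.52 CPM, and 18 of these 24 differed by less than 2-fold in CPM between the pools (22 with 1 CPM added to each value). Some hosts code for proteins of the actin cytoskeleton. Mir6935 in Actg1, the gene of cytoplasmic gamma-actin, had 11 and 8 counts. Mir7036b in the first intron of Add1, which encodes the spectrin partner adducin, had 8 and 11. Mir6945 in Pdlim7, an actin-associated adaptor, had 7 and 9, and Mir6979 in Diaph1, a formin, had 3 and 10.

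Hosts of nuclear proteins were also among them. Mir7075 in Terf2, a telomere-binding factor, had 5 and 12 counts. Mir6990 in Esrra, an orphan nuclear receptor, had 9 and 6. Mir6936 in Sirt7, a nuclear deacylase, had 6 and 6. Apart from this group, Mir6971 in Skiv2l, a helicase of RNA decay, had 6 and 6.

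Further hosts code for enzymes and membrane or matrix proteins. Mir6951 in Azin1, the antizyme inhibitor, had 7 and 11 counts, and Mir6903 in Atp2b4, a calcium pump, had 8 and 9. Mir6900 in Ndufa10, a subunit of respiratory complex I, had 7 and 9. Mir6928 in Atp6v0a1, a subunit of the proton pump of vesicles, had 6 and 6, and Mir6946 in Sec24c, a coat protein of vesicles leaving the ER, had 6 and 5. Mir7018, a whole intron of the perlecan gene Hspg2, had 5 and 6. The remaining counts in this group ran from 1 to 15 per library, and none but Mir7025 and Mir7049 differed between the pools by the call used here.

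Hosts with a pair of the hairpins had few counts for both. Skiv2l held Mir6971 with 6 and 6 counts and Mir6970, a whole intron, with 5 and 1. Srebf1, the gene of a lipid-synthesis factor, held Mir6921 with 1 and 4 counts and Mir6922 with 1 and 0. Cmip held Mir7077 with 2 and 2 counts and Mir7078 with none, and Arap3 held Mir6980 with 0 and 1 and Mir6981 with 1 and 0. None of these differences between introns of a host was tested.

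A list of 5 known mirtrons from outside the number range served for comparison. Mir1981 had 520 and 604 counts (88.7 ± 2.58 CPM), Mir3102 had 472 and 348 (65.5 ± 18.9 CPM) and Mir877 had 289 and 252 (43.0 ± 7.43 CPM). Mir702 had 204 and 132 counts (26.9 ± 10.1 CPM) and Mir1224 had 45 and 72 (9.15 ± 2.31 CPM). So 4 of these 5 exceeded Mir6944, and the 5 together had 233 CPM against 95 CPM for all 178 hairpins. Both-end positions were annotated for all but Mir702, which overlaps an exon of Plod3. Only 15 of the 178 hairpins have that position and 151 lay at a 3′ intron end, so 233 and 95 CPM compare unlike classes.

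Cell type markers all lay above the highest hairpin, Mir6944 (12.7 CPM). All 17 marker miRNAs of smooth muscle, epithelium, glands, endothelium, liver, blood and striated muscle were counted, with means from 67.1 CPM (Mir208b, striated muscle) to 178400 CPM (Mir143, smooth muscle). Epithelial Mir200c stood at 14200 CPM and Mir375, of endocrine and glandular cells, at 18050 CPM. The liver marker Mir122 was present at 1601 ± 1194 CPM, with 14641 counts in replicate 1 and 5051 in replicate 2. In whole tissue, fewer cells of a type and less RNA per cell cannot be told apart. The tables give no read positions, so a processed miRNA and another short fragment of the host transcript cannot be told apart either.

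How often a hairpin was counted in both pools rose with its number of counts. That rise is built in, because a gene with 1 summed count can be counted in only 1 library. Sums within the classes below were not matched between the hairpins and the other genes. Of the 117 hairpins counted in replicate 1, 82.1% were also counted in replicate 2, and of the 114 counted in replicate 2, 84.2% were in replicate 1. With 1 to 3 summed counts, 18 of 50 were counted in both (36.0%), against 20 of 93 other genes (21.5%). With 4 to 9, 40 of 45 were (88.9%), against 59 of 72 (81.9%). With 10 to 162, the highest sum of the set, 38 of 40 were (95%), against 148 of 148 others.

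In the 40 hairpins with at least 10 summed counts, the log2 ratio of replicate 2 over replicate 1, with 1 CPM added to each, had a median of -0.08, and 17 were higher and 23 lower in replicate 2. The median over all 466 genes tested was -0.11. The absolute log2 ratio had a median of 0.35 in the hairpins and 0.35 in the 148 other genes with 10 to 162 counts, whose median sum was higher (31.5 against 13 counts). With 0.5 CPM added the medians were 0.45 and 0.42, and with 5 CPM 0.14 and 0.16, so their order depends on the added value. Within 2-fold were 36 of the 40 (90.0%), against 95.3% of those 148. The added CPM holds these ratios toward 0 at such low levels.

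Between the pools, 4 of the 40 tested hairpins passed the call, an adjusted p under 0.05 and a difference of at least 2-fold. Over all 466 genes tested 5.79% were called, with 0.644% higher and 5.15% lower in replicate 2, and 7 of the 148 other genes with 10 to 162 counts were (4.73%). The test is a two-sided exact binomial test on the counts of the 2 libraries with Benjamini-Hochberg adjustment over the 466 genes. It compares these 2 libraries and counting error, not conditions, and with 4 calls the shares are imprecise.

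Mir7025, the hairpin partly in an exon of Pdgfra, had 15 counts in replicate 1 and 3 in replicate 2 (log2 ratio -1.27, adjusted p = 0.00808, exact binomial test). Mir7049, in intron 5 of Pak4, a protein kinase gene, had 11 counts and 1 (log2 ratio -1.30, adjusted p = 0.00581, exact binomial test). Mir7059, in Cln3, a lysosomal membrane protein gene, had 0 counts in replicate 1 and 11 in replicate 2 (adjusted p = 0.00308, exact binomial test). Mir6898, in Kansl3, a subunit of a histone acetyltransferase complex, had 0 and 10 counts (adjusted p = 0.00577, exact binomial test). Against a floor of 3 counts in replicate 1 these were 3.29-fold and 2.99-fold higher, with the counting error of replicate 2 left out. The exact 95% intervals of the log2 ratio, with no CPM added, began at 1.17 for Mir7059 and 1.01 for Mir6898. Mir7059 and Mir6898 are below the 30 highest and were chosen for mention after their values were seen.

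The binomial test allows for counting error only. With the spread between libraries in the model, edgeR's exact test with a common dispersion called 0 of the 40, with 4 at an unadjusted p under 0.05, and 4 genes in all. That dispersion was estimated from the same 2 libraries, so the differences under test raise it and lower the number of calls. The result is therefore no independent check of the 4 calls. With 5 CPM in place of 1 CPM added, the 4 log2 ratios were -0.46, -0.41, 0.41 and 0.38, under the 2-fold limit. Mir6944 was higher in replicate 2 by a log2 ratio of 0.49, with an adjusted p of 0.0484 by the exact binomial test, but under the fold limit. Of the 17 marker miRNAs, 3 passed the same call, all lower in replicate 2: the liver marker Mir122 (14641 and 5051 counts) and the red cell markers Mir451a (3177 and 1695) and Mir144 (1027 and 532). Under the fold limit, the glandular marker Mir375 (77112 and 155010 counts) and the striated muscle marker Mir206 (635 and 1279) both had a log2 ratio of 0.85. Their part in the differences of the hairpins was not tested.

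**Figure D5:**
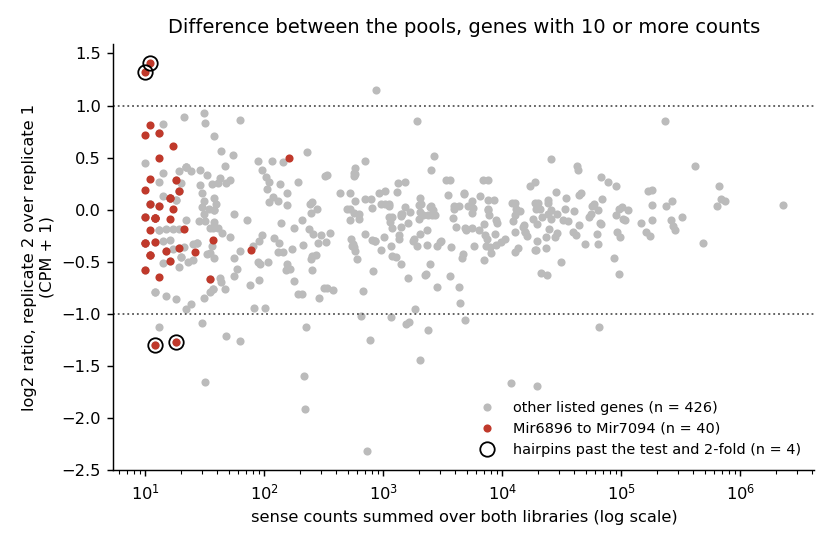
Log2 ratio of replicate 2 over replicate 1 with 1 CPM added (vertical axis) against summed sense counts (log-scale horizontal axis) for the 466 genes with 10 or more counts, with the 40 hairpins marked. The hairpins sit at the left, from 10 to 162 counts, and the 4 called ones, Mir7059, Mir6898, Mir7025 and Mir7049 (circled), lie beyond a log2 ratio of 1 in size.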

How the data were processed

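Small RNA of 2 pools of E15.5 stomach was analysed from the authors' deposited counts, 1 table of whole-number read counts per miRNA gene and library, made on mm10 with GENCODE M4 per the deposited description files. Which programs aligned and counted the reads is not given in these sources. No header names the columns, and the second of the 3 counts, which with the third adds up to the first, was read as sense strand. Lines naming no gene were left out of totals. Of all reads, 25.5% and 27.0% matched several places and 18.0% and 16.2% were unmapped, so hairpins with near-identical copies may lose reads.

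Symbols, hosts and introns were taken from GENCODE M21 (mm10) by identifier, and 79 listed identifiers had no symbol. Sequences come from RefSeq (GRCm38.p6), matched by symbol, with a hairpin for 161 of the 178 genes, all at the same coordinates. Host transcripts are those of other genes on the same strand. The rule for named genes took those with at least 10 summed counts, at most 30 by mean CPM, and lists of 5 known mirtrons and 17 markers. Other hairpins are named as examples of an annotation class, host or seed, or after their values were seen: hairpins in shared hosts, the calls of Mir7059, Mir6898, Mir6939 and Mir7023, and the hairpins and pancreatic miRNAs given last. The members and lists were chosen with earlier results of these data known.

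CPM were taken over sense counts. Intervals for shares are 95% Wilson intervals, and like the limit of 3 counts for an observed 0 they reflect counting error alone, because a molecule can give several reads. Only 1 group exists, so conditions could not be compared. The exact binomial test (scipy 1.17.1) and its adjustment were checked on simulated counts with counting error only, the error that the test assumes. There 0 of 277 unchanged genes were called. Of genes with 10 to 162 real summed counts, changed by a log2 ratio of 1.5 in size, 17 of 27 were called (63.0%). In that range the 40 tested hairpins had a median sum of 13 counts and the 148 other genes 31.5. The 63.0% is therefore not the rate for the hairpins. This check does not cover spread between libraries beyond counting error. edgeR 4.0.16 (TMM, exact test with a common dispersion from an intercept-only design) and DESeq2 1.42.0 size factors served as alternatives, as did other count minimums, pseudocounts, denominators, distances from an intron end and leaving out each library.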

Additional observations from a re-analysis of the deposited data

How the results depend on the processing

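The number of hairpins detected, 6 with 10 or more counts in both libraries, was 41 with over 3 in both, 96 with at least 1 in both and 135 with at least 1 in either, and leaving out each library gave 10 to 12. The share of sense counts, 0.00950%, was 0.0309% without the 20 most abundant genes in the total, 0.00497% of all reads, 0.00823% without the most abundant hairpin, Mir6944, and 0.00893% to 0.0101% with each library left out. The 4 pool calls became 0 with a minimum of 20 summed counts (6 hairpins tested), 0 with 100 (1 tested) and 0 by edgeR's exact test. With no minimum they were 6, adding Mir6939 (0 and 9 counts) and Mir7023 (7 and 0). TMM and DESeq2's size factors gave the same 4 hairpins. They moved the median log2 ratio of all tested genes from -0.114 to -0.0129 and 0.0. The median log2 ratio of the hairpins was -0.34 with a minimum of 20 and 0.49 with 100, where only Mir6944 remained. Of all genes tested, edgeR's exact test, with its dispersion from the same 2 libraries, called 4 against 27. With no fold limit 216 were called. An intron-end position held for 169 hairpins within 2 bases, 176 within 10 and 169 with protein-coding transcripts only. No paired analysis was possible because both libraries belong to 1 group. Depth limits these values, since 1 count is worth 0.167 and 0.150 CPM.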

Other observations

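Some hosts are genes known mainly from other organs or cells, and their hairpins are given here as values chosen after they were seen. Mir6969 in Clps, a gene of the exocrine pancreas, had 20 and 17 counts, and the pancreatic acinar miRNAs Mir217, Mir216b and Mir216a had 19 and 14, 5 and 9, and 11 and 2. Mir148a, also abundant in acinar cells, had 6194 and 6665. Mir7007 in Cpa3, which encodes a mast cell protease, had 6 and 4 counts. Mir6974 in Lta, a lymphocyte cytokine gene, had 2 and 0. Mir7058 in Lat, a T cell adaptor gene, and Mir6923 in Myh3, the embryonic myosin gene of skeletal muscle, had none in either library, which allows up to 0.501 and 0.449 CPM. Whether these hairpins follow their hosts was not tested, since no host mRNA was measured.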
